A study of Mus musculus with 20 samples.

Results

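The genes described here are 47 interferon-stimulated and antigen presentation genes, taken by name from a table of 48795 mouse genes. They were chosen by gene symbol for known roles in the interferon response and the MHC class I pathway, with earlier results of these data known. Counts among them that are set beside all genes are a description and not a test of the list. All 47 were found in the table, and all lie outside the duplicated region of chromosome 16, so each is present in 2 copies in every heart.

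RNA from 20 whole embryonic hearts of E13.5 mice was sequenced as mRNA libraries. The study compared Dp1Tyb, a mouse model of Down syndrome, with the same duplication carrying fewer functional copies of Dyrk1a, which encodes a protein kinase. The groups were 10 WT hearts, 5 Dp1Tyb hearts and 5 Dp1TybDyrk1a+/+/- hearts. Dp1Tyb embryos carry a tandem duplication from Lipi to Zbtb21 on 1 chromosome 16, and 232 genes of the table lie in it. Dp1TybDyrk1a+/+/- embryos carry the same duplication together with the Dyrk1atm1Mla null allele, so that only Dyrk1a is back at 2 functional copies. Every allele is constitutive and present in all cells, and the strains were kept on C57BL/6J. The WT hearts came from littermates of both duplication strains. The labels do not say which WT heart belongs to which strain, so all 10 were used in every comparison with WT and those comparisons share their controls.

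Interferons bind receptor pairs on the cell surface, and the receptor-bound Janus kinases then phosphorylate STAT proteins. STAT proteins in a complex with IRF9 bind the interferon-stimulated response element (ISRE) of target genes, while STAT dimers bind the gamma-activated site (GAS). Many target genes block steps of viral replication, and others cut peptides, move them into the endoplasmic reticulum and display them on MHC class I molecules. Genes for the receptor chains IFNAR1, IFNAR2, IFNGR2 and IL10RB lie in the duplicated region, whereas the genes described here lie downstream of them.

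Promoter windows of 250 bases before to 50 bases after the transcription start were found by symbol in RefSeq (GRCm38.p6) for 40 of the 47 genes. The ISRE core was searched as GAAANNGAAA on both strands and the GAS as TTCNNNGAA, which reads the same on both strands. The ISRE core was found in windows of 16 of these 40 genes, against 1079 of 27025 genes (3.99%) in the whole table of promoters. A GAS match was found in 11 of the 40 (27.5%), against 2582 of 27025 genes (9.55%). The 4 stretches of 150 bases before the start shown here belong to genes that rose in the comparisons described further on and hold an ISRE core match. Capitals mark bases inside an ISRE core or GAS match, and each stretch reads 5′ to 3′ on the strand of the gene.
Isg15 (chr4:156200819-156200968, minus strand): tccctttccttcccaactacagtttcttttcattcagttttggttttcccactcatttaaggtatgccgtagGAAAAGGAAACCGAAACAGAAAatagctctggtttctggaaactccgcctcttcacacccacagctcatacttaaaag
Bst2 (chr8:71537473-71537622, minus strand): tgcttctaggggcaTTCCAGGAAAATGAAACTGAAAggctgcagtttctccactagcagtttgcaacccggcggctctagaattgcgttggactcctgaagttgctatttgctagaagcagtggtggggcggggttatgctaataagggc
Gbp7 (chr3:142530186-142530335, plus strand): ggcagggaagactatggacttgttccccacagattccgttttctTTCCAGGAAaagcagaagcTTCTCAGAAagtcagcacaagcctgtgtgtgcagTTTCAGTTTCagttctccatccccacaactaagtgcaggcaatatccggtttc
Lgals9 (chr11:78984925-78985074, minus strand): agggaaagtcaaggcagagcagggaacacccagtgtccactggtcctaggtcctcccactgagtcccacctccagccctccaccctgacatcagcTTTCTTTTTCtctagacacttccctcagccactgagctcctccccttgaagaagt

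The Isg15 stretch holds 3 overlapping ISRE cores, and the Bst2 stretch holds 2 overlapping ISRE cores and a GAS match that overlaps them. In Gbp7 the ISRE core is on the other strand and stands nearer the start than both GAS matches. The Lgals9 stretch holds 1 ISRE core, also on the other strand. Among the genes that passed the test in any comparison, 7 had a window and 4 of these held an ISRE core. Among the others, 33 had a window and 12 held it (36.4%). The 3 genes that passed the test and held no ISRE core were Ifi44, Lgals3bp and Ifit2, and 1 of the 2 windows of Ifit2 held a GAS match. No window was found for Rtp4, Usp18, Dhx58, Oas2, Parp9, Parp14 and Ifi27. A match is a description of letters, and binding was not measured.

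Values are log2 normalized counts as deposited, and a log2 fold change is a difference between group means of these values. At low levels the deposited values vary little between hearts, as in a regularized log2 transformation, so changes of low genes may be understated. Testing was limited to 15304 genes whose normalized count averaged 10 or more over the hearts, and 46 of the 47 genes passed this filter. Libraries were run in lanes 3, 6 and 7, and the WT, Dp1Tyb and Dp1TybDyrk1a+/+/- hearts were spread over these lanes as 4, 4 and 2, as 2, 2 and 1, and as 1, 1 and 3. Sex chromosome transcripts showed a female pattern in 3 of 10 WT, 4 of 5 Dp1Tyb and 1 of 5 Dp1TybDyrk1a+/+/- hearts. The mean of 13 mitochondrial transcripts was 15.33 in WT replicate 6 and 15.76 in Dp1TybDyrk1a+/+/- replicate 2, against 14.61 to 14.99 in the other 18 hearts. Cardiomyocyte, endothelial, fibroblast, epicardial and smooth muscle markers were all expressed in every heart. Macrophage markers summed to 3109 to 3652 normalized counts in WT, 3274 to 3641 in Dp1Tyb and 3165 to 3410 in Dp1TybDyrk1a+/+/- hearts, and 1 of 15 (Lyz2, log2 fold change 0.28) was higher in Dp1Tyb than in WT hearts. Lyz2 was also higher in Dp1Tyb than in Dp1TybDyrk1a+/+/- hearts (0.225, adjusted P = 0.0327, limma). Over both duplication genotypes against WT it was higher by 0.164 (adjusted P = 0.0154, limma). None of 7 lymphoid markers reached the filter, their sums were 7.42 to 7.83 normalized counts, and Ncr1 was at 0 in every heart.

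The levels of the 47 genes covered a wide range in WT hearts. Per kilobase of exon, Ifitm2, an inhibitor of viral entry, stood highest with 1250 normalized counts (log2 10.29 ± 0.11 (SD, n = 10)), followed by B2m, the light chain of MHC class I, with 740. Lgals9, which encodes galectin-9, stood at 268, and the gap from each of these 3 genes to the next was larger than their SDs. Ifitm2 shares 268 exonic bases on the same strand with the gene Gm45717, so part of its count is uncertain. Within the other roles the highest level per kilobase was 162 for Trim25, 139 for Eif2ak2, 129 for Psmb10, 109 for Samhd1, 57.2 for Stat2, 56.7 for Dtx3l, 55.1 for Ifit2 and 21.0 for Gbp7. Stat2 and Dtx3l did not differ beyond their spread, nor did Ifitm3 (166) and Trim25. Psmb9, a catalytic immunoproteasome subunit, stood lowest at 1.69 and was the gene that did not reach the filter. Its deposited values were 2.65 to 2.75 in WT, 2.64 to 2.70 in Dp1Tyb and 2.66 to 2.69 in Dp1TybDyrk1a+/+/- hearts.

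Dp1Tyb was compared with WT to ask whether the duplication changes these two-copy genes. In Dp1Tyb hearts 6 of the 46 genes tested were higher than in WT (Isg15, Bst2, Rtp4, Ifi44, Lgals9 and Lgals3bp) and 1 was lower (Ifit2), against 3.08% of all genes tested called in either direction, 1.81% higher and 1.27% lower. The changes were small, from 1.15-fold to 1.25-fold for the genes that rose and 0.91-fold for Ifit2. The log2 fold change was above 0 in 42 of them, against 48.5% of all genes, and the median was 0.089, against -0.0019 over all genes. The range was -0.14 to 0.32. Shares of all genes, here and below, include the genes of the duplicated region and were not computed for two-copy genes alone. In whole hearts, a change in the number of cells that express a gene and a change in RNA per cell cannot be told apart. The median was 0.044 within lane 3, 0.079 within lane 6 and 0.195 within lane 7, where the only Dp1Tyb heart was replicate 1. Without Dp1Tyb replicate 1 only Ifit2 and Lgals9 passed the test, and with embryo sex as a covariate only Ifit2 did (adjusted P = 0.00764 in limma, against 0.0554 to 0.176 for the other 6).

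In Dp1TybDyrk1a+/+/- hearts 1 of the 46 genes, Lgals9, was higher than in WT and none was lower. Of all genes tested 0.712% were called in this comparison, 0.627% higher and 0.0849% lower. These shares include the genes of the duplicated region. A count of 1 is too small for a conclusion about the 46 genes. Before adjustment, 22 of the 46 genes had p under 0.05 in limma, 21 higher and 1 lower, against 9.64% of all genes. Values above 0 were found for 43, against 47.4% of all genes, and the median was 0.079, against -0.003. The range was -0.10 to 0.25. Within lanes 3, 6 and 7 the median was 0.008, 0.087 and 0.105, and lanes 3 and 6 held 1 Dp1TybDyrk1a+/+/- heart each. The call for Lgals9 was lost without Dp1TybDyrk1a+/+/- replicate 3 (0.216, adjusted P = 0.127), without replicate 4 or with lane as a covariate (adjusted P = 0.129).

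The mean of both duplication genotypes was set against WT to ask how the hearts with the duplication differ from WT on average. Apart from Dyrk1a they share the whole duplicated region, with 232 genes of the table. A change found here therefore cannot be tied to the receptor genes alone. In this comparison 7 of the 46 genes were higher and 1 was lower, against 1.35% of all genes called, 1.12% higher and 0.235% lower. Gbp7 was called here in addition to the 7 genes named for Dp1Tyb. The contrast averages both genotype means, so a gene can pass mainly through 1 of them. Of the genes called here only Lgals9 was also called in Dp1TybDyrk1a+/+/- alone. The median was 0.074, against -0.0027 over all genes, with 42 of 46 genes above 0, and within lanes 3, 6 and 7 it was 0.034, 0.082 and 0.168. With lane as a covariate the calls for Ifit2, Bst2 and Lgals3bp were lost (adjusted P = 0.0598, 0.0603 and 0.0828), and with embryo sex as a covariate those for Bst2 and Lgals3bp were lost (adjusted P = 0.0829 and 0.0704).

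**Figure D1:**
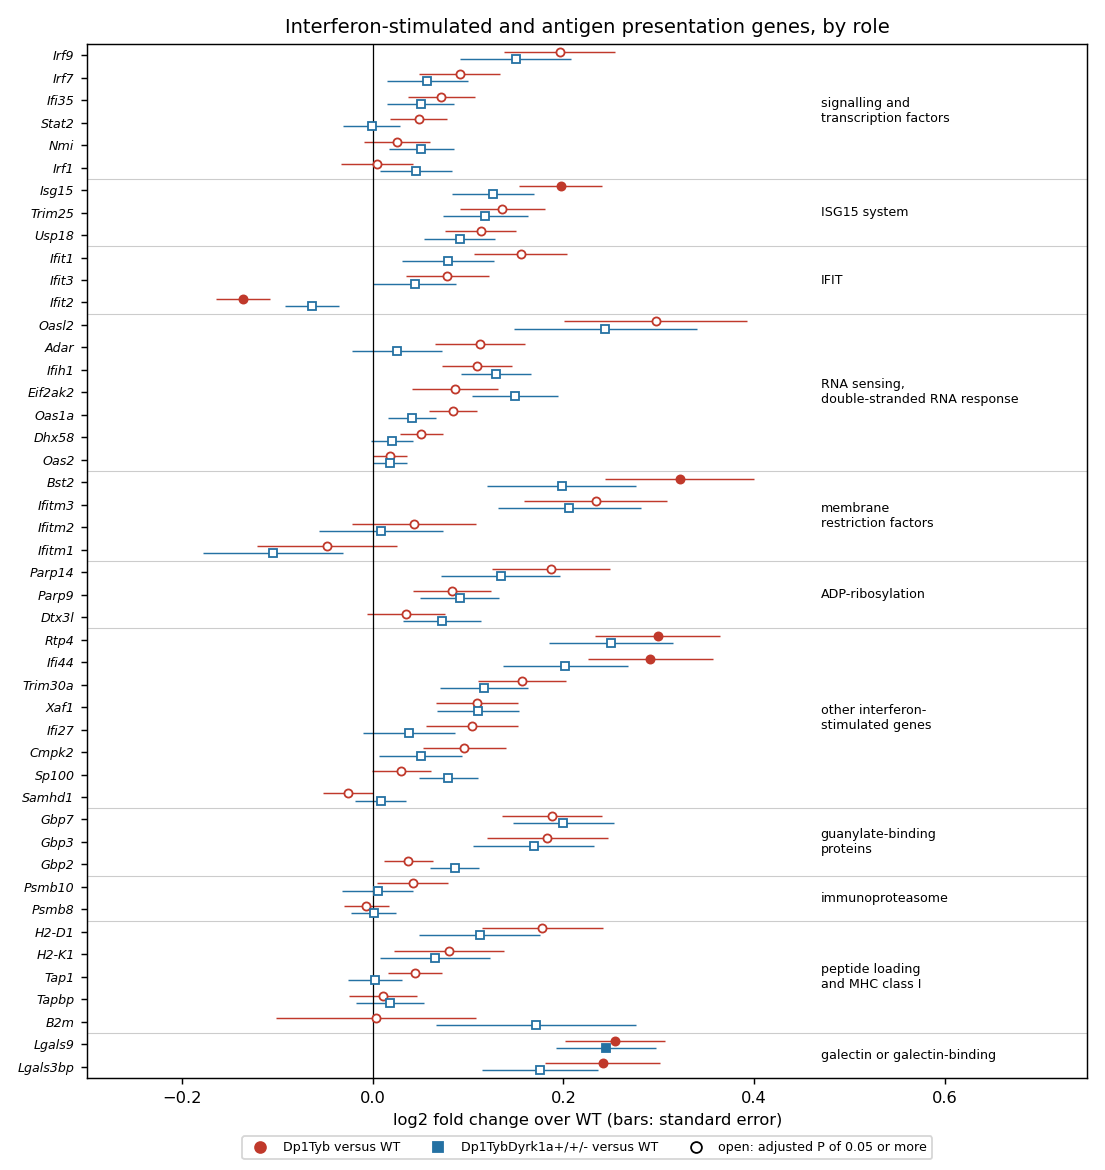
Log2 fold change over WT of the 46 genes tested (x axis), by role, for Dp1Tyb (red circles) and Dp1TybDyrk1a+/+/- (blue squares). Bars are standard errors and filled symbols have an adjusted P-value under 0.05. Most symbols stand to the right of 0, Ifit2 is the only filled symbol to the left, and Lgals9 is the only gene filled in both comparisons.

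Among the genes of the ISG15 system, Isg15 passed the test. Isg15 encodes a ubiquitin-like protein that is attached to other proteins after interferon stimulation. Its log2 normalized count was 4.63 to 4.79 in WT hearts with a median of 4.66. The Dp1Tyb hearts had 4.98, 4.78, 4.81, 4.90 and 4.91 and the Dp1TybDyrk1a+/+/- hearts had 4.74, 4.64, 4.98, 4.91 and 4.75. Of the Dp1Tyb hearts 4 of 5 stood above every WT heart, as did 2 of 5 Dp1TybDyrk1a+/+/- hearts, and the highest WT value was that of replicate 9. The log2 fold change over WT was 0.20 (SE 0.0432, adjusted P = 0.0125, limma) in Dp1Tyb and 0.13 (adjusted P = 0.317) in Dp1TybDyrk1a+/+/- hearts. Within lanes 3, 6 and 7 the Dp1Tyb difference was 0.146, 0.191 and 0.311, and without Dp1Tyb replicate 1 it was 0.171 (adjusted P = 0.0558). Trim25, an E3 ligase that attaches ISG15, and Usp18, which removes it and restrains receptor signalling, had log2 fold changes of 0.14 and 0.11 in Dp1Tyb and 0.12 and 0.09 in Dp1TybDyrk1a+/+/- hearts, and neither passed the test.

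The IFIT genes encode proteins that bind foreign RNA and block its translation. Ifit2 was the only gene of all 46 that was lower. Its level was 8.23 to 8.41 in WT hearts with a median of 8.35. In Dp1Tyb hearts it was 8.28, 8.17, 8.25, 8.21 and 8.14 and the Dp1TybDyrk1a+/+/- hearts had 8.27, 8.26, 8.27, 8.28 and 8.32. In Dp1Tyb 3 of 5 hearts were below every WT heart, whereas all Dp1TybDyrk1a+/+/- hearts lay within the WT range, in which replicate 5 was lowest. It differed from WT by -0.14 in Dp1Tyb (SE 0.0282, adjusted P = 0.00852, limma), -0.06 in Dp1TybDyrk1a+/+/- (adjusted P = 0.471) and -0.10 over both (adjusted P = 0.0254). The Dp1Tyb difference was -0.225, -0.094 and -0.045 within lanes 3, 6 and 7, and in Dp1Tyb it passed the test with every single heart left out in turn and under all 13 alternatives that gave it a value. The call over both genotypes was lost without WT replicate 1, 2, 7 or 9 or Dp1Tyb replicate 2 or 5, with an adjusted P of at most 0.0584, and with lane as a covariate (adjusted P = 0.0598). Ifit1 and Ifit3, which lie beside it on chromosome 19, had values above 0, at 0.16 and 0.08 in Dp1Tyb and 0.08 and 0.04 in Dp1TybDyrk1a+/+/- hearts, and neither passed the test.

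Membrane restriction factors hold back virus particles at the cell surface or block their entry. Bst2, which encodes tetherin, had 6.83 to 7.39 in WT hearts with a median of 7.05. In the Dp1Tyb hearts it stood at 7.49, 7.41, 7.29, 7.38 and 7.31 and the Dp1TybDyrk1a+/+/- hearts had 7.31, 6.86, 7.42, 7.40 and 7.26. WT replicate 9 alone accounted for the overlap between WT and Dp1Tyb, since the next WT heart was at 7.08. Among the Dp1TybDyrk1a+/+/- hearts replicate 2 stood low, and it was also the heart with the highest mitochondrial transcripts. The difference from WT was 0.32 in Dp1Tyb (SE 0.078, adjusted P = 0.025, limma), the largest of the 46 genes, 0.20 in Dp1TybDyrk1a+/+/- (adjusted P = 0.403) and 0.26 over both (adjusted P = 0.0414). The Dp1Tyb difference was 0.213, 0.355 and 0.477 within lanes 3, 6 and 7. Without Dp1Tyb replicate 1 it was 0.295 (adjusted P = 0.083), and without replicate 2 or 4 it also missed the threshold. The call over both genotypes remained in 2 of the 20 fits that left out 1 heart each, those without WT replicate 9 and without Dp1TybDyrk1a+/+/- replicate 2, and the adjusted P was at most 0.0923 in the others. Ifitm3, a blocker of viral entry in endosomes, had 0.23 (adjusted P = 0.104) and 0.21 (adjusted P = 0.363), and every heart of both duplication genotypes was above 9 of the 10 WT hearts and below WT replicate 9. Ifitm2 and Ifitm1 had 0.04 and -0.05 in Dp1Tyb and 0.01 and -0.10 in Dp1TybDyrk1a+/+/- hearts.

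Rtp4, which encodes a receptor transporter protein induced by interferon, was the only gene whose WT and duplication hearts did not overlap. Its level was 5.98 to 6.21 in WT hearts with a median of 6.13. Dp1Tyb hearts were at 6.68, 6.27, 6.35, 6.23 and 6.50 and the Dp1TybDyrk1a+/+/- hearts had 6.27, 6.23, 6.54, 6.49 and 6.26. All 10 duplication hearts were above every WT heart. Such a separation was found for 1.51% of all genes in Dp1Tyb, 0.562% in Dp1TybDyrk1a+/+/- and 0.464% over both. Genes of the duplicated region are part of these shares, and 1 gene among the 46 is too few for a conclusion about the list. None of the 46 genes had every duplication heart below the WT hearts, against 1.12%, 0.0784% and 0.0196% of all genes. On the log2 scale the change was 0.30 in Dp1Tyb (SE 0.0655, adjusted P = 0.0125, limma), 0.25 in Dp1TybDyrk1a+/+/- (adjusted P = 0.108, the largest value not called there) and 0.27 over both (adjusted P = 0.00623). Within lanes 3, 6 and 7 the value over both was 0.210, 0.213 and 0.371, and without Dp1Tyb replicate 1 the Dp1Tyb difference was 0.231 (adjusted P = 0.0523). Rtp4 lies on chromosome 16 outside the duplicated region (chr16:23520219-23614222, GRCm38.p6), and it shares 1129 exonic bases on the same strand with the long noncoding RNA Gm45338, so part of its count may belong to that gene.

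Ifi44, an interferon-induced cytoplasmic protein gene, had 5.13 to 5.38 in WT hearts with a median of 5.19. Levels in Dp1Tyb were 5.81, 5.36, 5.43, 5.40 and 5.49 and the Dp1TybDyrk1a+/+/- hearts had 5.29, 5.24, 5.65, 5.50 and 5.37. Dp1Tyb replicate 1 stood clearly highest, 4 of 5 Dp1Tyb hearts were above every WT heart, and 2 of 5 Dp1TybDyrk1a+/+/- hearts were. The log2 fold change was 0.29 in Dp1Tyb (SE 0.0657, adjusted P = 0.0156, limma), 0.20 in Dp1TybDyrk1a+/+/- (adjusted P = 0.27) and 0.25 over both (adjusted P = 0.0171). The Dp1Tyb difference was 0.169, 0.250 and 0.616 within lanes 3, 6 and 7, and without Dp1Tyb replicate 1 it was 0.214 (adjusted P = 0.0558). The other 6 genes of this mixed group of effectors did not pass the test. They were Trim30a (0.16 in Dp1Tyb and 0.12 in Dp1TybDyrk1a+/+/-), Xaf1 (0.11 in both), Ifi27 (0.10 and 0.04), the mitochondrial nucleotide kinase gene Cmpk2 (0.10 and 0.05), the nuclear body gene Sp100 (0.03 and 0.08) and Samhd1 (-0.03 and 0.01), which encodes an enzyme that breaks down deoxynucleotides. Trim30a is 98.4% identical to Dnajc14 over 667 bases, and Sp100 is 98.2% identical to Gm2619 over 618 bases. The counts of Trim30a and Sp100 are therefore uncertain in part.

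**Figure D2:**
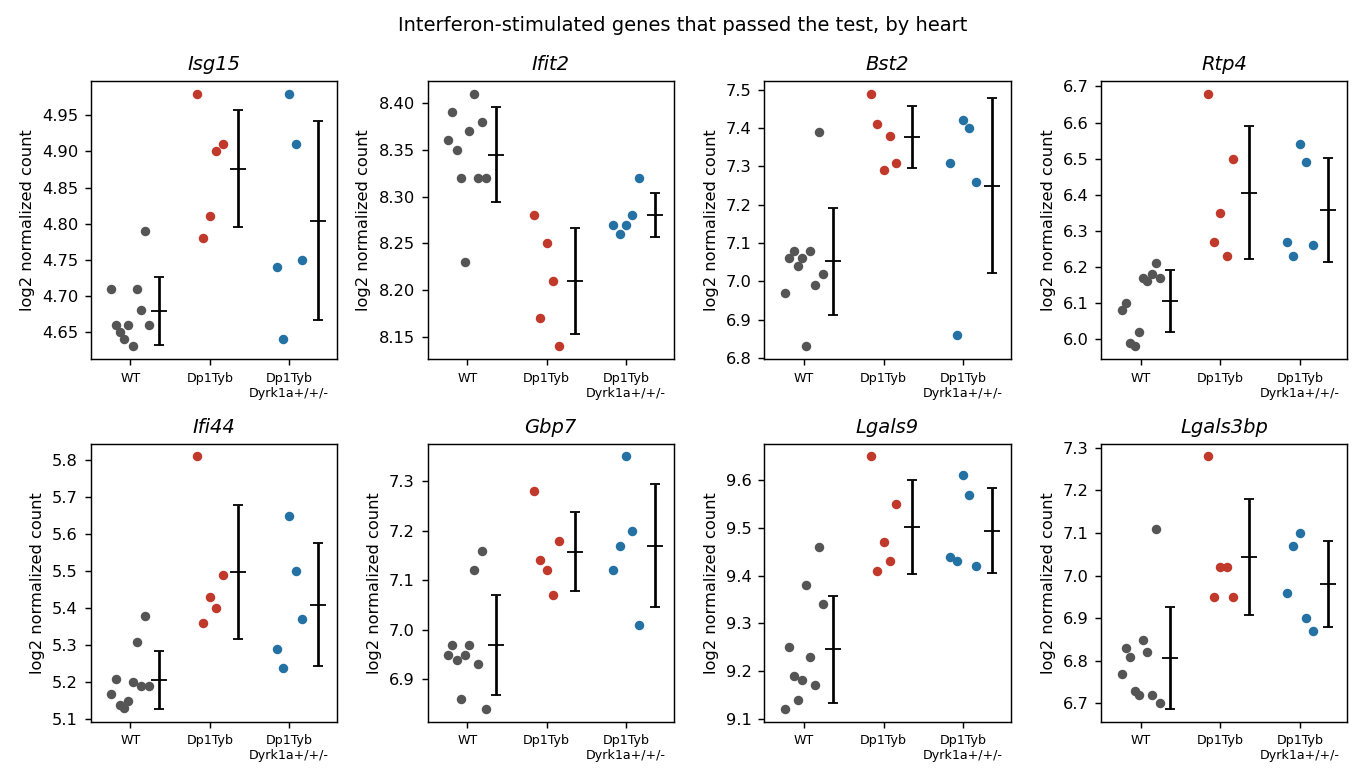
Log2 normalized counts (y axis, scale differs between genes) of the 8 genes that passed the test in any comparison, with 1 point per heart for WT (grey), Dp1Tyb (red) and Dp1TybDyrk1a+/+/- (blue) and the mean ± SD beside the points. Rtp4 is the gene without overlap between WT and the other hearts, and Ifit2 is the gene that is lower in Dp1Tyb.

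Lgals9 and Lgals3bp, a galectin gene and the gene of a galectin-binding protein, were grouped as 1 role of 2 genes. Lgals9 encodes galectin-9, a lectin that binds receptors on immune cells. Its level was 9.12 to 9.46 in WT hearts with a median of 9.21. In Dp1Tyb it was 9.65, 9.41, 9.47, 9.43 and 9.55 and the Dp1TybDyrk1a+/+/- hearts had 9.44, 9.43, 9.61, 9.57 and 9.42. All 10 were above the WT median, and 3 Dp1Tyb and 2 Dp1TybDyrk1a+/+/- hearts were above every WT heart. It differed from WT by 0.25 in Dp1Tyb (SE 0.0525, adjusted P = 0.00856, limma), 0.25 in Dp1TybDyrk1a+/+/- (adjusted P = 0.0224) and 0.25 over both (adjusted P = 0.00158), a 1.19-fold change in each. Within lanes 3, 6 and 7 the value over both was 0.188, 0.216 and 0.332.

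Lgals3bp encodes a secreted glycoprotein that binds galectin-3. Its level was 6.70 to 7.11 in WT hearts with a median of 6.79. The Dp1Tyb values were 7.28, 6.95, 7.02, 7.02 and 6.95 and the Dp1TybDyrk1a+/+/- hearts had 6.96, 7.07, 7.10, 6.90 and 6.87. The highest WT heart, replicate 9, was above all Dp1TybDyrk1a+/+/- hearts and above 4 of 5 Dp1Tyb hearts, and all 10 duplication hearts were above the other WT hearts, the next of which was at 6.85. The difference from WT was 0.24 in Dp1Tyb (SE 0.0608, adjusted P = 0.0317, limma), 0.18 in Dp1TybDyrk1a+/+/- (adjusted P = 0.327) and 0.21 over both (adjusted P = 0.0348). The Dp1Tyb difference was 0.081, 0.237 and 0.570 within lanes 3, 6 and 7, and without Dp1Tyb replicate 1 it was 0.182 (adjusted P = 0.126). Leaving out WT replicate 4, 5, 8 or 10 or Dp1Tyb replicate 3 or 4 also ended this call, and the call over both genotypes remained in 7 of 20 such fits.

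Guanylate-binding proteins are interferon-induced GTPases that attack vacuoles holding pathogens. Gbp7 had 6.84 to 7.16 in WT hearts with a median of 6.95. The 5 Dp1Tyb hearts had 7.28, 7.14, 7.12, 7.07 and 7.18 and the Dp1TybDyrk1a+/+/- hearts had 7.12, 7.17, 7.35, 7.20 and 7.01. All duplication hearts were above the WT median, and they overlapped the upper WT hearts. On the log2 scale the change was 0.19 in Dp1Tyb (adjusted P = 0.0557), 0.20 in Dp1TybDyrk1a+/+/- (adjusted P = 0.112) and 0.19 over both (SE 0.0429, adjusted P = 0.0194, limma, 1.14-fold). Within lanes 3, 6 and 7 the value over both was 0.110, 0.101 and 0.373. Gbp7 shares 637 exonic bases on the same strand with the pseudogene Gm43802, so part of its count is uncertain. Gbp3 and Gbp2 had 0.18 and 0.04 in Dp1Tyb and 0.17 and 0.09 in Dp1TybDyrk1a+/+/- hearts, and neither passed the test.

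None of the 7 genes of RNA sensing and the response to double-stranded RNA passed the test in any comparison, although all 7 had values above 0 in both duplication genotypes. Oasl2, an interferon-induced relative of the oligoadenylate synthetases, had the largest value of any gene not called in Dp1Tyb, 0.30 (SE 0.0961, adjusted P = 0.108), and 0.27 over both genotypes (adjusted P = 0.114). Its level was 6.50 to 7.13 in WT hearts with a median of 6.66. Dp1Tyb hearts gave 7.36, 6.89, 6.89, 6.81 and 6.97 and the Dp1TybDyrk1a+/+/- hearts had 6.73, 6.94, 7.20, 7.05 and 6.75. WT replicate 9 was above all but the 2 highest duplication hearts, and each of the other WT hearts was at or below 6.78. Ifih1, which encodes the RNA sensor MDA5, had 0.11 and 0.13 in Dp1Tyb and Dp1TybDyrk1a+/+/- and 0.12 over both (adjusted P = 0.0537). The RNA editing gene Adar had 0.11 and 0.03, the RNA-activated kinase gene Eif2ak2 had 0.09 and 0.15, Oas1a had 0.08 and 0.04, Dhx58 had 0.05 and 0.02, and Oas2 had 0.02 in both. Oas1a and Oas1g are 99.6% identical over 500 bases, so their counts are uncertain.

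The 6 signalling genes and transcription factors showed no called change. Irf9, the DNA-binding partner of STAT proteins, came nearest with 0.20 in Dp1Tyb (SE 0.0583, adjusted P = 0.0762), 0.15 in Dp1TybDyrk1a+/+/- (adjusted P = 0.4) and 0.17 over both (adjusted P = 0.0928). It shares 282 exonic bases on the same strand with the coding gene Rnf31, so part of its count is uncertain. Irf7, the factor that amplifies interferon production, had 0.09 and 0.06. Ifi35 and its partner Nmi had 0.07 and 0.02 in Dp1Tyb and 0.05 each in Dp1TybDyrk1a+/+/- hearts. Stat2 had 0.05 and -0.00, and Irf1 had 0.00 and 0.04. The ADP-ribosyltransferase genes Parp14 and Parp9 had 0.19 and 0.08 in Dp1Tyb and 0.13 and 0.09 in Dp1TybDyrk1a+/+/- hearts. Dtx3l, the ubiquitin ligase partner of PARP9, had 0.04 and 0.07, and Parp9 and Dtx3l overlap by 458 exonic bases on opposite strands.

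The antigen presentation genes did not pass the test in any comparison. The immunoproteasome replaces catalytic subunits of the proteasome and favours peptides that fit MHC class I. Psmb8 and Psmb10 had -0.01 and 0.04 in Dp1Tyb and 0.00 and 0.01 in Dp1TybDyrk1a+/+/- hearts. Tap1, which pumps peptides into the endoplasmic reticulum, had 0.04 and 0.00, and Tapbp, which encodes the loading factor tapasin, had 0.01 and 0.02. Tapbp shares 923 exonic bases on the same strand with the coding gene Zbtb22, so part of its count is uncertain. The median of the 5 peptide loading and MHC class I genes was 0.044 in Dp1Tyb and 0.065 in Dp1TybDyrk1a+/+/- hearts.

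The MHC class I heavy chain genes H2-D1 and H2-K1 had 0.18 (adjusted P = 0.153) and 0.08 in Dp1Tyb and 0.11 and 0.06 in Dp1TybDyrk1a+/+/- hearts. H2-D1 was 7.98 to 8.33 in WT hearts with a median of 8.19. Among Dp1Tyb hearts it was 8.46, 8.34, 8.33, 8.31 and 8.37 and the Dp1TybDyrk1a+/+/- hearts had 8.43, 7.96, 8.29, 8.44 and 8.36. In Dp1Tyb 3 of 5 hearts were above every WT heart and replicate 3 was level with the highest WT heart at 2 decimals, while Dp1TybDyrk1a+/+/- replicate 2 was below every WT heart and WT replicate 6 was the lowest of its group. These are the 2 hearts with high mitochondrial transcripts. In the same pair B2m was high, at 11.36 in Dp1TybDyrk1a+/+/- replicate 2 and 11.10 in WT replicate 6, against 10.48 to 10.63 in the other 18 hearts, and so was Ifitm2, at 10.66 and 10.53 against 10.13 to 10.39. The part of mitochondrial transcripts in these values was not tested. Without these hearts, an alternative chosen after the data were seen, H2-D1 was among the genes called in each comparison with WT, and the counts rose from 7 to 10 in Dp1Tyb, from 1 to 5 in Dp1TybDyrk1a+/+/- and from 8 to 14 over both. H2-D1 and H2-K1 share a nearly identical stretch of 201 bases, so reads of these genes may be split between them.

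Dp1Tyb was compared with Dp1TybDyrk1a+/+/- to ask whether the third functional copy of Dyrk1a goes with a further change. Female pattern was found in 4 of 5 Dp1Tyb and 1 of 5 Dp1TybDyrk1a+/+/- hearts. Sex and the number of Dyrk1a copies are therefore hard to tell apart in this comparison. None of the 46 genes passed the test in limma, against 1.16% of all genes called, 0.425% higher and 0.738% lower. Before adjustment 1 gene, Ifit2, had p under 0.05 in limma (p = 0.0379, adjusted P = 0.24), against 18.5% of all genes. Giving each heart a weight led to 1 call, for Ifitm2. For none of the 46 genes did the hearts of these groups separate, against 2.1% of all genes with every Dp1Tyb heart above and 3.55% with every Dp1Tyb heart below. The median difference was 0.030, against 0.0028 over all genes, with 31 of 46 genes above 0. The range was -0.17 to 0.12, and the largest value was that of B2m (-0.17, SE 0.121, adjusted P = 0.463), for which Dp1TybDyrk1a+/+/- replicate 2 stood high. The 95% intervals of the difference were wide next to the changes over WT. They were -0.03 to 0.17 for Isg15, -0.14 to -0.00 for Ifit2, -0.06 to 0.31 for Bst2, -0.11 to 0.21 for Rtp4, -0.07 to 0.25 for Ifi44, -0.14 to 0.11 for Gbp7, -0.12 to 0.13 for Lgals9 and -0.08 to 0.21 for Lgals3bp. For each gene except Ifit2 the interval held both 0 and a difference of 0.1, so neither value can be excluded with these hearts. Within lanes 3, 6 and 7 the median difference was 0.032, -0.001 and 0.118, and in each lane 1 of the genotypes had a single heart. The mean over the 46 genes differed by 0.066 in embryos of female pattern (4 against 1 heart). In embryos of male pattern (1 against 4 hearts) it differed by -0.038. With embryo sex as a covariate none of the 46 genes passed the test either.

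A few hearts were high for most of these genes at once. The mean over the 46 genes was 6.77 ± 0.05 (SD) in the 10 WT hearts, 6.88 ± 0.07 in the 5 Dp1Tyb hearts and 6.86 ± 0.06 in the 5 Dp1TybDyrk1a+/+/- hearts. Dp1Tyb replicate 1 had the highest mean, 6.998, and 42 of its 46 genes were above the mean of its genotype. WT replicate 9 had 6.896, with 45 of 46 genes above the WT mean, and the other WT hearts had 6.722 to 6.801. Dp1TybDyrk1a+/+/- replicates 3 and 4 had 6.942 and 6.897, each with 35 of 46 genes above the mean of their genotype. The remaining Dp1Tyb hearts had 6.831 to 6.868, all above the WT hearts other than replicate 9, and the lowest Dp1TybDyrk1a+/+/- heart, replicate 2 with 6.799, lay within that WT range. The 3 WT hearts of female pattern, replicates 2, 7 and 9, all ran in lane 3 and had 6.783, 6.801 and 6.896. The WT hearts of male pattern had 6.722 to 6.774. Replicate 4, the only Dp1Tyb heart of male pattern, was the lowest of its genotype at 6.831. Replicate 1, the only Dp1TybDyrk1a+/+/- heart of female pattern, had 6.823, below replicates 3, 4 and 5 of male pattern. The part of embryo sex in the mean over the 46 genes was not tested. Within embryos of female pattern the difference of this mean from WT was 0.063 in Dp1Tyb (4 against 3 hearts) and -0.004 in Dp1TybDyrk1a+/+/- (1 against 3). Within embryos of male pattern it was 0.084 (1 against 7) and 0.122 (4 against 7).

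**Figure D3:**
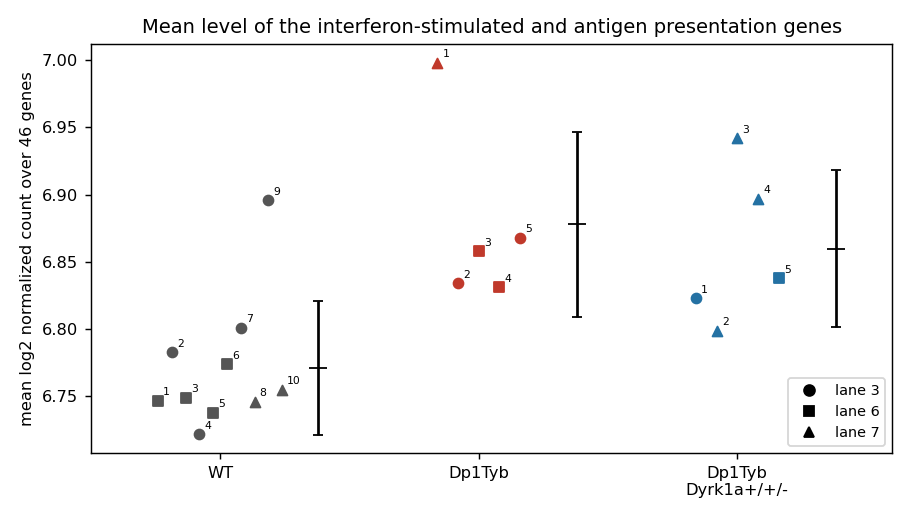
Mean log2 normalized count over the 46 genes tested (y axis) in each heart, with replicate numbers beside the points, lanes 3, 6 and 7 as symbols and the mean ± SD of each genotype. WT replicate 9 (6.896) and Dp1Tyb replicate 1 (6.998) stand above the other hearts of their genotype.

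The genes also moved together between hearts of the same genotype. After subtraction of the genotype means, the mean Pearson correlation over 1035 pairs of the 46 genes was 0.373 across the 20 hearts, against 0.000443 over pairs of all 15304 genes. This is a description over hearts that share lanes and a common normalization. The genes with the highest mean correlation with the others were Ifi44 (0.585), Gbp3 (0.565) and Oasl2 (0.558), and 29 genes reached 0.4. Ifitm2 (-0.161) and B2m (-0.147) were the only genes below 0. Without WT replicate 9 the mean was 0.314 (19 hearts), and without WT replicate 9, Dp1Tyb replicate 1 and Dp1TybDyrk1a+/+/- replicate 3 it was 0.177 (17 hearts). With Dp1TybDyrk1a+/+/- replicate 4 also left out it was 0.122 (16 hearts).

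**Figure D4:**
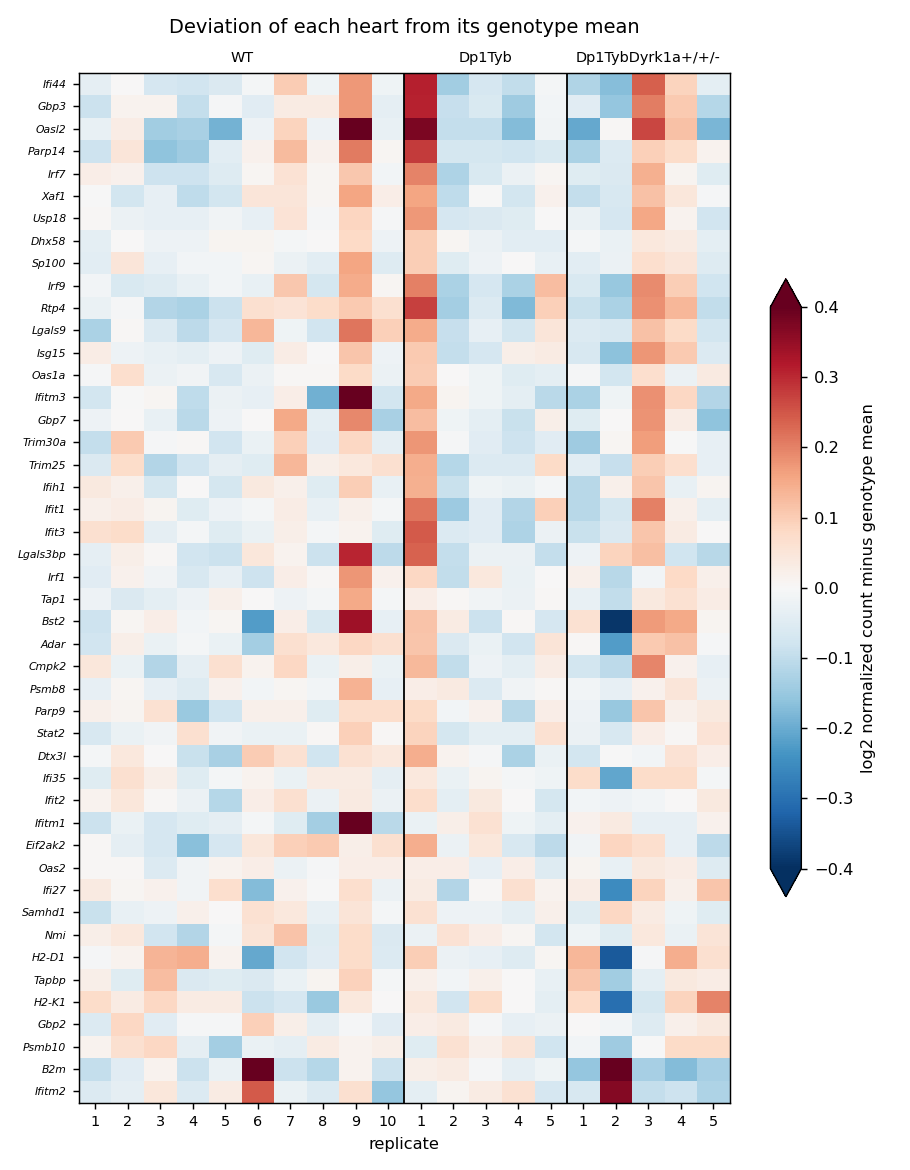
Deviation of each heart (x axis, replicates grouped by genotype) from the mean of its genotype for the 46 genes tested (rows, ordered by mean correlation with the others), in log2 normalized counts from -0.4 (blue) to 0.4 (red). WT replicate 9, Dp1Tyb replicate 1 and Dp1TybDyrk1a+/+/- replicate 3 are red over most upper rows, and B2m and Ifitm2 at the bottom are red in WT replicate 6 and Dp1TybDyrk1a+/+/- replicate 2.

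Upstream of these genes, the ligands were barely detected and the receptor chains in 3 copies were higher. The table held 21 interferon genes, of which 18 were at 0 in every heart, and Ifnab, Ifnz and Ifng varied at mean normalized counts of at most 1.12, so none was tested. The receptor genes Ifnar1, Ifnar2, Ifngr2 and Il10rb rose by 0.43, 0.35, 0.38 and 0.37 in Dp1Tyb hearts, and by 0.45, 0.37, 0.39 and 0.40 in Dp1TybDyrk1a+/+/- hearts. None of the 5 two-copy receptor chain and kinase genes and none of the 8 negative regulators passed the test in any comparison. The part of the receptor genes in the changes described above was not tested.

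A wider list of pathway genes was counted beside the 47. Outside them 135 two-copy genes of the pathway were counted and 100 were tested, of which 7 were higher in Dp1Tyb, 0 in Dp1TybDyrk1a+/+/- and 6 over both genotypes, against 1.81%, 0.627% and 1.12% of all genes tested. None was lower. Their medians were 0.033, 0.018 and 0.021. Those higher in Dp1Tyb were Rigi (0.17), Ddx60 (0.10), Gbp6 (0.25), Ifi27l2a (0.07), Mov10 (0.13), Samd9l (0.24) and Shisa5 (0.13). With embryo sex as a covariate 5 of these 7 calls were lost, those for Rigi (adjusted P = 0.146), Ddx60 (0.212), Ifi27l2a (0.213), Mov10 (0.24) and Samd9l (0.109). Of the 20 fits that left out 1 heart each, Mov10 was called in 3, Ddx60 in 5, Ifi27l2a in 6, Rigi in 13, Samd9l in 18, and Gbp6 and Shisa5 in all 20. Over both genotypes they were Rigi (0.15), Gbp6 (0.23), Gbp9 (0.18), Samd9l (0.23), Shisa5 (0.09) and Tor3a (0.09). In these fits Tor3a was called in 4 of 20, Rigi in 14, Gbp9 in 19 and the other three in all, and with embryo sex as a covariate the calls for Rigi (adjusted P = 0.0595) and Tor3a (0.0795) were lost. None of 16 further antigen presentation genes and none of 3 constitutive proteasome counterparts passed the test in any comparison. Mx2, an interferon-stimulated gene inside the duplication, rose by 0.25 in Dp1Tyb and 0.18 in Dp1TybDyrk1a+/+/- hearts (adjusted P = 0.00155 and 0.042), and Mx1 did not reach the filter. The Mx2 call in Dp1TybDyrk1a+/+/- was lost in 10 of the 20 fits that left out 1 heart, with an adjusted P of at most 0.212, and with lane as a covariate (adjusted P = 0.217), whereas the call in Dp1Tyb was kept in all of these.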

How the data were processed

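Per the labels, RNA from snap-frozen whole hearts was extracted with RNeasy, made into libraries with the KAPA mRNA HyperPrep kit and sequenced on an Illumina HiSeq. The submitters' processing notes name Trimmomatic 0.36, STAR 2.5.2a, RSEM 1.2.31, DESeq2 and GRCm38. The strand setting was not given in the sources used here. The authors deposited 1 table of log2 normalized counts for 20 hearts, from -2.31 to 18.97, with 19473 genes at the same value in every heart. The transformation is not named. The authors tested counts with DESeq2, which cannot be run on these values, so limma 3.58.1 (R 4.3.3) was used on the deposited log2 values. It was fitted with trend and 1 mean per genotype over all 20 hearts, for 15304 genes whose normalized count averaged 10 or more, and genes were called at a Benjamini-Hochberg adjusted P-value under 0.05 over all of them. Replicates are separate embryos, and replicate numbers follow the order of the labels and pair nothing. Sequencing depth is unknown, since no read totals were used here. No counting interval is given, and precision rests on the spread between hearts.

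Gene names came from GENCODE M39, positions and promoters from GRCm38.p6, and sequences were compared with blastn 2.17.0. Other steps used Python 3.11.15. The fit was tested on simulated data. The genes, the pathway list and the marker lists were chosen with earlier results of these data known. The rule named every gene that passed the test in any comparison, the largest uncalled gene of each comparison, the highest gene per length of each role, the receptor chains in 3 copies, Mx1, Mx2, detected ligands and called pathway genes. A result for 1 further gene is not reported here, and that gene was left out of the pathway counts. H2-D1, Ifitm3, Ifitm1 and Irf9 were given in more detail after their values were seen. Alternatives were other filters, normalizations, limma settings, covariates, lanes and hearts left out. Embryo sex as a 2-level covariate and the fit without hearts of high mitochondrial transcripts were added after the data were seen.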

Additional observations from a re-analysis of the deposited data

Results flagged for a closer look

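Of 36 groups of values examined, 12 held a heart whose gap to the next heart was wide for the range of its genotype, and chance alone gives such a gap in about 1 group of 20. The groups share hearts and are not independent. WT replicate 9 was the highest WT heart for Bst2 (7.39, next 7.08), Isg15 (4.79, next 4.71), Lgals3bp (7.11, next 6.85), Ifitm1 (5.00, next 4.43) and the mean over the 46 genes tested (6.896, next 6.801). Dp1Tyb replicate 1 was the highest Dp1Tyb heart for Lgals3bp (7.28, next 7.02) and for the mean over the 46 genes (6.998, next 6.868). For Ifit2, WT replicate 5 stood low at 8.23 (next 8.32) and Dp1TybDyrk1a+/+/- replicate 5 stood high at 8.32 (next 8.28). The 2 hearts with high mitochondrial transcripts gave the other flags, for B2m in WT replicate 6 (11.10, next 10.61) and in Dp1TybDyrk1a+/+/- replicate 2 (11.36, next 10.63), and for Ifitm2 in Dp1TybDyrk1a+/+/- replicate 2 (10.66, next 10.23).

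Without WT replicate 9 the number of these genes called rose from 7 to 12 in Dp1Tyb, from 1 to 3 in Dp1TybDyrk1a+/+/- and from 8 to 10 over both genotypes, 7 of which were also called with all hearts.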

How the results depend on the processing

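Of 2858 values of single genes under the alternatives, 2604 kept their direction and their side of the threshold, 202 no longer passed it, 52 came to pass it and 0 reversed. In Dp1Tyb against WT the 7 genes called became 17 with a weight for each heart, 12 with the compared genotypes only, 3 with the sex chromosome transcript as a covariate and 1 with embryo sex as a 2-level covariate, and 2 to 12 with 1 heart left out (2 without Dp1Tyb replicate 1, 12 without WT replicate 9 or without Dp1TybDyrk1a+/+/- replicate 2). In Dp1TybDyrk1a+/+/- against WT the 1 gene became 10 with heart weights, 2 with the compared genotypes only, 2 with either covariate for sex, 5 without the 2 hearts of high mitochondrial transcripts, 0 with no filter on low values, 0 with lane as a covariate, and 0 to 3 with 1 heart left out. In Dp1Tyb against Dp1TybDyrk1a+/+/- heart weights gave 1 gene, and leaving out 1 heart gave 0 in each fit. Over both genotypes the 8 genes became 24 with heart weights, 14 without the 2 hearts of high mitochondrial transcripts, 5 when the filter was raised to a normalized count of 100, 5 with lane as a covariate, and 5 to 13 with 1 heart left out (5 without WT replicate 1, 2 or 7, and 13 without Dp1TybDyrk1a+/+/- replicate 2). The medians moved beyond the spread between hearts within lane 7 for Dp1Tyb against WT (0.195), Dp1Tyb against Dp1TybDyrk1a+/+/- (0.118) and both genotypes against WT (0.168), and within lane 3 for Dp1TybDyrk1a+/+/- against WT (0.008). Lane 7 held 1 Dp1Tyb heart and lane 3 held 1 Dp1TybDyrk1a+/+/- heart. The cause of these shifts was not tested. Centring each heart on its median, quantile normalization, robust limma and limma without trend gave 7 genes in Dp1Tyb, 1 in Dp1TybDyrk1a+/+/- and 8 or 9 over both. No paired analysis was possible because the labels give no replicate numbers shared between genotypes and no litters.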
